A study of Mus musculus with 36 samples.

Results

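The unbound fraction of forebrain RNA was compared between mice that were spontaneously awake in the dark phase and mice that slept in the light phase, on 6 arrays per state out of 36 arrays in the series. Members were all 12 arrays labelled as unbound waking or unbound sleep, read for 13924 genes that passed a filter on dim signals, out of 18193 genes with a probe set. All animals were adult Cnp–eGFP-L10a mice on a C57BL/6 background, heterozygous by the series title, in which the Cnp promoter places a tagged ribosomal protein in oligodendrocytes. Ribosomes carrying the tag were pulled down, and the RNA that stayed behind formed the unbound fraction, which by the study design comes from the other cell types, neurons and glia other than oligodendrocytes. Every animal of the waking and sleep groups therefore carried the transgene. By state and number in the labels, every one also gave a bound array. Tissue of waking animals was taken at 3 to 5 am, when 70% or more of the last 6 to 7 h had been spent awake and the final waking bout had run for over 1 h with breaks shorter than 5 min. For sleep animals the hours were 3 to 5 pm, with 75% or more of the last 6 to 7 h asleep and a final sleep bout of over 45 min with breaks shorter than 4 min. A further 6 unbound arrays came from animals that, after a largely waking night, were kept awake for 4 h in the light with unfamiliar objects, and they serve here to set a value beside the waking change. State and time of day differed together between waking and sleep and cannot be told apart in this comparison.

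As background, neurons that fire switch on immediate-early genes within minutes, among them transcription factors of the Fos, Egr and Nr4a families and synaptic proteins such as Arc, and phosphatases that switch the MAP kinase cascade off again follow the same signal. A second system, the circadian clock, runs in nearly every cell: Clock or Npas2 with Arntl switches on Per and Cry genes, whose proteins then repress them, while Dbp and Nr1d1 are outputs that peak at other hours. Forebrain RNA taken in the waking and sleeping state has long been used to read both systems.

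The waking arrays were dimmer as a whole. The mean over all 45101 probe sets of an array was 6.33 to 6.34 log2 in waking arrays and 6.39 to 6.42 log2 in sleep arrays, with no overlap. The means were 6.34 ± 0.0029 and 6.40 ± 0.0099 (SD, n = 6 each), a difference of −0.07. The median of the tested genes was 8.07 to 8.15 log2 in waking and 8.18 to 8.24 log2 in sleep arrays. The sleep-deprived arrays stood beside the sleep arrays, at 6.41 to 6.42 for the mean over all probe sets. What lowered the waking arrays was not tested, and each change is therefore given as deposited and, where the call differs, relative to the median gene of each array. Waking array 3 had the lowest median correlation with its own group (0.958, against 0.967 to 0.981 for the other 11 arrays). Sex-linked genes set apart waking animals 3 and 5 and sleep-deprived animal 11, with Xist above the Y-linked genes Kdm5d, Eif2s3y and Uty, but no sleep animal. Genes named below as called in waking against sleep on the deposited scale, but not called without these animals, are given as such beside the result. Without them 4 waking arrays were left, so a lost call does not by itself mean a smaller change. Among lost genes, Rpap1 went from −1.39 to −1.54 log2 and Hspa1b from 1.52 to 1.27. Falls of Dbp, Prr5l, Skor1, Kcns2, Insig1, Rps14 and H2-K1 kept their deposited call without these animals but were then not called relative to the median gene.

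**Figure D1:**
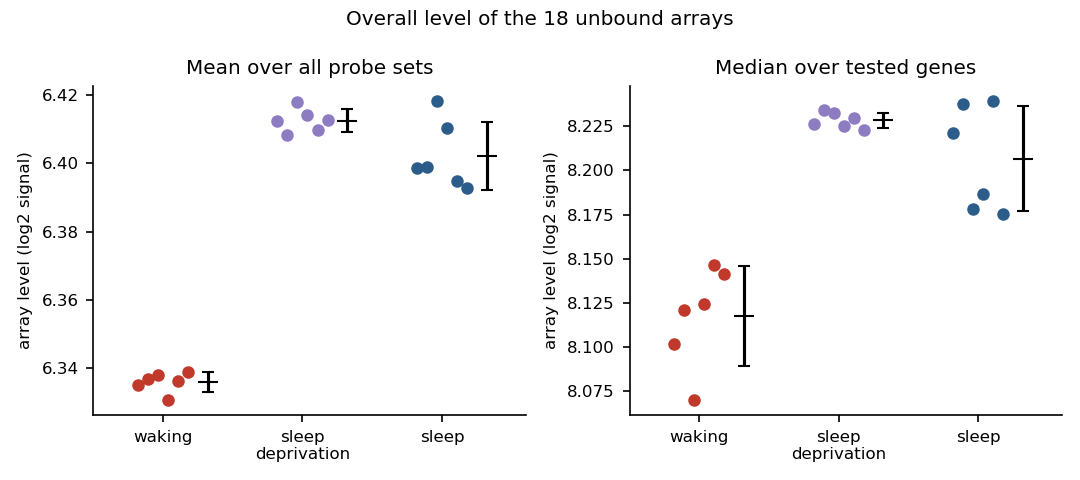
Overall level of each unbound array (points, log2 signal) with group mean and SD (bars), as the mean over all probe sets (left) and the median over tested genes (right). The 6 waking arrays lie below all sleep-deprived and all sleep arrays in both panels, and the axes do not start at 0.

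Of the 13924 genes, 1004 (7.21%) were called in waking against sleep at an adjusted p below 0.05 with limma, 207 higher (1.49%) and 797 lower (5.72%) in waking. The median gene stood at −0.09 log2. Relative to the median gene the same fit called 630 genes (4.52%), 325 higher (2.33%) and 305 lower (2.19%). Centring sets the median change near 0, so this near balance follows from the step itself. All 207 rises and 305 of the falls were called on both scales, 118 genes rose only relative to the median gene and 492 fell only as deposited. Both groups of 6 arrays did not overlap in 619 genes (4.45%), with waking higher in 0.876% and lower in 3.57% of genes, and in 3.25% relative to the median gene. Rises and falls of at least 2-fold numbered 36 and 84 as deposited. The share called differed with signal level: it was 12.7% in the dimmest of 10 equal groups of genes, 4.17% in group 5 and 11.5% in the brightest group, and 9.26%, 3.38% and 4.02% in these groups relative to the median gene. The dimmest group, at 2.57 to 5.48 log2, includes genes below the unbound limit of the filter that were tested because their mean over the bound arrays passed. A second probe set for the same gene moved the same way in 101 of 147 genes (68.7%) that rose and 76 of 113 genes (67.3%) that fell relative to the median gene, against 3668 of 6438 genes that were not called. Without the 3 animals set apart by sex-linked genes, 533 genes (3.83%) were called, 120 higher (0.862%) and 413 lower (2.97%).

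**Figure D2:**
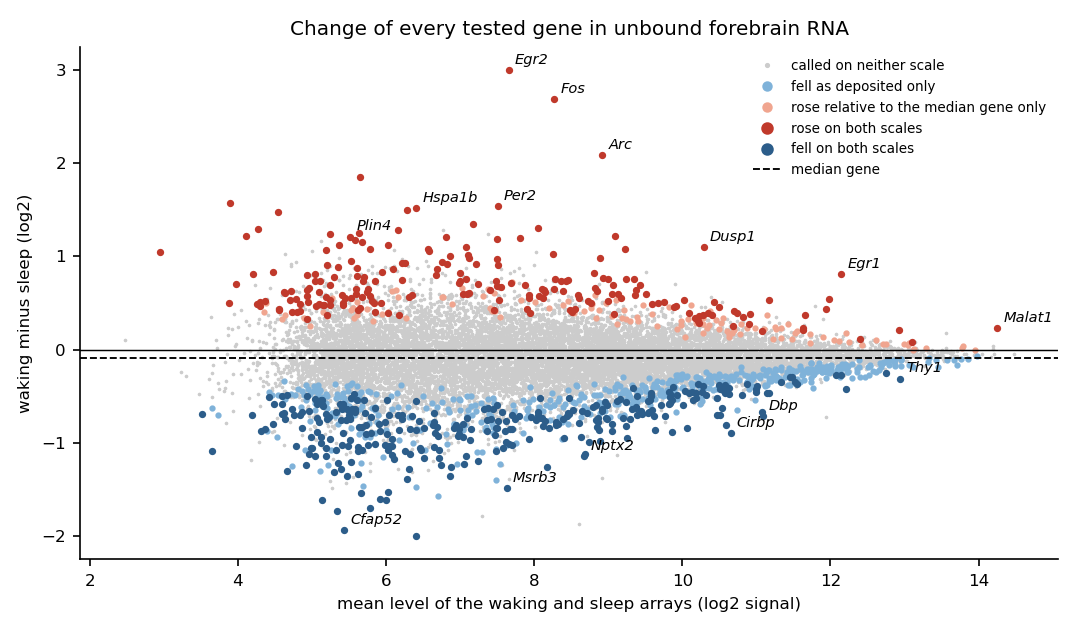
Waking minus sleep (log2, vertical axis) against mean level of the waking and sleep arrays (log2 signal, horizontal axis) for each of 13924 genes, with colour showing the scale on which a gene was called. The median gene (dashed line) lies at −0.09, Egr2, Fos and Arc are the highest points, and genes that fell only as deposited are most frequent at the bright end.

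Transcription factor genes of the immediate-early response included Egr2 and Fos, the highest changes of all called genes. Of 23 tested members of that list, 8 rose and 0 fell (9 and 0 relative to the median gene), where 1.49% of all genes rose, and the median member was 0.48 log2 higher against −0.09 for all genes. Egr2, a zinc finger factor, read 7.43, 9.47 and 9.96 log2 (lowest, median and highest) in waking and 5.08, 5.99 and 7.68 in sleep arrays. The groups overlapped only through waking array 3, the lowest of its group, and sleep array 3, the highest. The change was 2.99 ± 0.40 log2 (SE, n = 6 each, adjusted p = 0.000241), 7.96-fold, and a second probe set gave 3.73. Fos, a subunit of the AP-1 factor, stood at 8.41, 9.82 and 10.05 log2 in waking and 6.44, 6.69 and 7.73 in sleep arrays, without overlap, a rise of 2.68 ± 0.26 (adjusted p = 7.44e-06) or 6.42-fold. Egr1, a relative of Egr2, read 12.38, 12.50 and 12.80 log2 in waking and 11.46, 11.73 and 11.95 in sleep arrays. Its rise of 0.81 ± 0.09 (adjusted p = 3.79e-05) was 1.75-fold, smaller than that of Fos or Egr2 but with less spread between arrays. Nr4a1, an orphan nuclear receptor, reached 8.14, 8.78 and 9.23 log2 in waking and 6.87, 7.43 and 7.91 in sleep arrays, a rise of 1.30 ± 0.19 (adjusted p = 0.000556) without overlap. Btg2, an antiproliferative cofactor of transcription, read 7.1996, 7.85 and 8.72 log2 in waking and 5.89, 6.499 and 7.37 in sleep arrays, a rise of 1.35 ± 0.26 (adjusted p = 0.00426) with overlap. Smaller rises were called for Fosl2, another AP-1 subunit (0.58 ± 0.14, adjusted p = 0.0154), Klf10 (0.50 ± 0.10, adjusted p = 0.00721) and Klf4 (0.95 ± 0.28, adjusted p = 0.0468), the last of them lost without the animals set apart by sex-linked genes (adjusted p = 0.235). Ier5 rose relative to the median gene only (0.38, adjusted p = 0.0336). Jun (0.32, adjusted p = 0.0983) and Fosb (0.80, adjusted p = 0.215), 2 further AP-1 subunits, were not called, and Fosb spread from 5.62 to 8.71 log2 among the waking arrays.

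Promoters are shown for 4 activity-induced genes that were called on both scales, because genes of this class are known to be switched on through cyclic AMP response elements. Capitals mark the short element TGACG, which reads as CGTCA when it lies on the other strand, and the full element TGACGTCA, in the 250 bases before the RefSeq start on GRCm38.p6, written 5′ to 3′ on the gene's own strand.
Fos (chr12:85473640-85473889, plus strand): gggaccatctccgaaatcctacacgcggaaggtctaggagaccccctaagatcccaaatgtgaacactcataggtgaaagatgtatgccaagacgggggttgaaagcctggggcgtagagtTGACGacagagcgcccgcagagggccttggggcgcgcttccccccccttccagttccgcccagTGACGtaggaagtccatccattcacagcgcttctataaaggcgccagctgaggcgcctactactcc
Nr4a1 (chr15:101266596-101266845, plus strand): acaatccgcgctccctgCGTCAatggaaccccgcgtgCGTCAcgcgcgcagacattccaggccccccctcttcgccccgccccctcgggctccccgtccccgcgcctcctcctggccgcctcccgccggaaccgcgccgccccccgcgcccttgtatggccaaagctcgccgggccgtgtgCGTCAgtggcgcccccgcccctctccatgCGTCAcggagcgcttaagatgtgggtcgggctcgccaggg
Btg2 (chr1:134079156-134079405, minus strand): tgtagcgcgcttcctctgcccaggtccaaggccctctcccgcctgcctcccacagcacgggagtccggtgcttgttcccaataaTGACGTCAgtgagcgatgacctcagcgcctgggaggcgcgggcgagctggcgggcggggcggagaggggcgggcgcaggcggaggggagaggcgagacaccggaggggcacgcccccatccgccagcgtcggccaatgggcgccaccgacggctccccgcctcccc
Dusp1 (chr17:26508473-26508722, minus strand): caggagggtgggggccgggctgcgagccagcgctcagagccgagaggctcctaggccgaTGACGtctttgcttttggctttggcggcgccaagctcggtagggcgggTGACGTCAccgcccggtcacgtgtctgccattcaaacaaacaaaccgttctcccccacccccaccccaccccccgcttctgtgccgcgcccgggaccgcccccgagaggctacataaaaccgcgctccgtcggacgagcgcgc
The short element lay 129 and 66 bases before the start of Fos, and the full element began 166 bases before Btg2 and 143 bases before Dusp1. Nr4a1 held 4 short elements on the opposite strand. Over the list, 13 of 17 members with a RefSeq promoter (76.5%) held the short element in this window, against 29.4% of 11187 tested genes with a promoter. Other lists held it as well, 7 of 8 cold-inducible and RNA-binding genes (87.5%), 15 of 26 heat shock genes (57.7%) and 6 of 16 MAP kinase brakes (37.5%), the list that holds Dusp1. The full element, which contains the short one on both strands, was in 2.89% of these genes. Of the 156 genes with a promoter that rose on both scales, 44 (28.2%) held the short element, close to the share of all tested genes. These matches describe letters and do not show that a factor was bound.

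Effectors that carry activity to the synapse included both rises and falls. Of 22 tested, 2 rose and 1 fell, where 1.49% of all genes rose and 5.72% fell, and the median member stood at 0.05 log2. Arc, which drives removal of AMPA receptors from the synapse, had the smallest p of all rises. Its values were 9.54, 9.89 and 10.53 log2 in waking and 7.33, 7.87 and 8.39 in sleep arrays, so that every waking array exceeded every sleep array by more than 1 log2. The rise was 2.09 ± 0.17 (adjusted p = 1.16e-06), 4.25-fold. Homer1, a postsynaptic scaffold with a short activity-induced form, read 11.16, 11.48 and 11.62 log2 in waking and 10.67, 10.94 and 11.13 in sleep arrays, a rise of 0.53 ± 0.09 (adjusted p = 0.00126) without overlap. Nptx2, a secreted pentraxin that clusters AMPA receptors and is known as an activity-induced gene, went the other way. It read 7.64, 8.19 and 8.33 log2 in waking and 9.00, 9.21 and 9.53 in sleep arrays, a fall of −1.14 ± 0.13 (adjusted p = 4.65e-05) without overlap, and its second probe set gave −0.30. Bdnf, a neurotrophin of the same list, averaged 8.66 ± 0.39 log2 in waking and 8.61 ± 0.31 in sleep arrays (SD, n = 6 each), a difference within its spread (0.05, adjusted p = 0.895). Inhba (0.38, adjusted p = 0.22) and Ptgs2 (0.60, adjusted p = 0.204) were not called either.

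Genes whose proteins damp the MAP kinase cascade rose in 5 of 18 cases and fell in 0, where 1.49% of all genes rose and 5.72% fell. Dusp6, a phosphatase that acts on ERK, read 9.58, 9.73 and 10.06 log2 in waking and 8.49, 8.67 and 8.99 in sleep arrays, a rise of 1.08 ± 0.11 (adjusted p = 2.33e-05). Dusp1, a nuclear phosphatase of several MAP kinases, stood at 10.48, 10.80 and 11.22 log2 in waking and 9.09, 9.83 and 10.01 in sleep arrays, a rise of 1.10 ± 0.14 (adjusted p = 0.00016). Neither gene overlapped between the groups, and the folds were 2.11 for Dusp6 and 2.14 for Dusp1. Dusp4 (0.74 ± 0.22, adjusted p = 0.0489), Dusp5 (0.57 ± 0.17, adjusted p = 0.0429) and the Ras pathway inhibitor Spry4 (0.64 ± 0.18, adjusted p = 0.0329) completed the 5, close to the threshold. Without the animals set apart by sex-linked genes Dusp4 (adjusted p = 0.154) and Spry4 (adjusted p = 0.123) were not called.

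**Figure D3:**
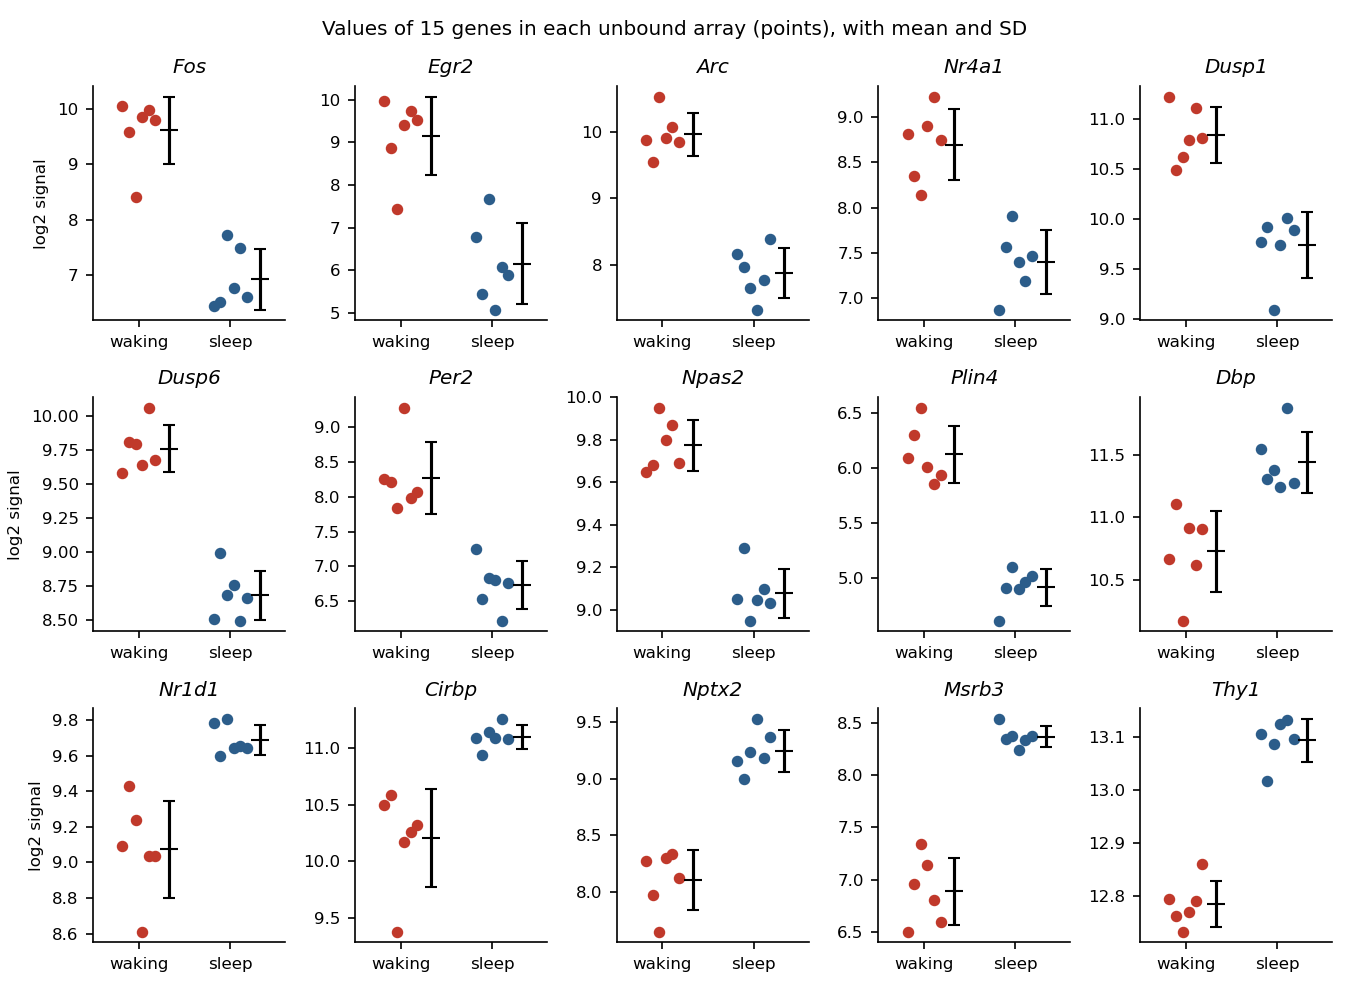
Log2 signal of 15 genes in each waking (left) and sleep (right) array, with mean and SD beside the points. Egr2 is the one panel in which the groups overlap. Waking array 3 is the lowest waking point for Fos (8.41), Egr2 (7.43), Cirbp (9.38), Nr4a1, Per2, Dbp, Nptx2 and Thy1. It is the highest for Arc, Npas2, Plin4 and Msrb3. Vertical axes differ between panels and do not start at 0.

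Clock genes changed in both directions. Of 22 tested, 4 rose and 2 fell (5 and 2 relative to the median gene), and 5 had groups that did not overlap. Over all genes 7.21% were called and 4.45% did not overlap. Per2, a repressor of the clock, read 7.84, 8.15 and 9.28 log2 in waking and 6.22, 6.78 and 7.26 in sleep arrays, a rise of 1.54 ± 0.23 (adjusted p = 0.000737) or 2.91-fold. Its 2 other probe sets gave −0.40 and 0.90. Npas2, an activator that partners Arntl in the forebrain, was steadier, with 9.65, 9.75 and 9.95 log2 in waking and 8.95, 9.05 and 9.29 in sleep arrays, a rise of 0.695 ± 0.10 (adjusted p = 0.000556). Cry1, which represses together with Per proteins, rose by 0.63 ± 0.13 (adjusted p = 0.00732), with ranges that did not overlap, 8.84 to 9.75 log2 in waking and 8.30 to 8.74 in sleep arrays. Per3 rose by 0.44 ± 0.13 (adjusted p = 0.0435) and was lost without the animals set apart by sex-linked genes (adjusted p = 0.169). Dbp, an output factor that binds D-boxes, read 10.17, 10.78 and 11.10 log2 in waking and 11.24, 11.34 and 11.88 in sleep arrays, a fall of −0.71 ± 0.14 (adjusted p = 0.00507). Without the animals set apart by sex-linked genes Dbp was called as deposited (adjusted p = 0.0248) but not relative to the median gene (adjusted p = 0.0584). Nr1d1, the nuclear receptor Rev-erb alpha that represses Arntl, read 8.61, 9.06 and 9.43 log2 in waking and 9.60, 9.65 and 9.81 in sleep arrays, a fall of −0.61 ± 0.12 (adjusted p = 0.00507). Arntl itself averaged 0.44 log2 higher (adjusted p = 0.124) and Clock 0.09 lower (adjusted p = 0.747), neither called. Per1, known both as a clock gene and as a glucocorticoid target, was not called (0.29, adjusted p = 0.292). The relative scale added Hlf, a relative of Dbp, as a rise (0.36, adjusted p = 0.0444), lost on that scale without the animals set apart by sex-linked genes (adjusted p = 0.0647).

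Genes known to answer glucocorticoids gave 3 rises and 0 falls among 18, where 1.49% of all genes rose and 5.72% fell. Sult1a1, a phenol sulfotransferase, read 6.48, 7.08 and 7.48 log2 in waking and 5.08, 5.59 and 5.96 in sleep arrays, a rise of 1.49 ± 0.28 (adjusted p = 0.00366). Plin4, a coat protein of lipid droplets, was dim, with 5.86, 6.05 and 6.55 log2 in waking and 4.61, 4.93 and 5.10 in sleep arrays, and rose by 1.21 ± 0.16 (adjusted p = 0.00016). Tiparp, a mono-ADP-ribosyltransferase, rose by 0.74 ± 0.13 (adjusted p = 0.00146). None of these 3 overlapped between the groups. The classical targets Tsc22d3 (0.17, adjusted p = 0.482), Cdkn1a (0.33, adjusted p = 0.117) and Zbtb16 (−0.23, adjusted p = 0.214) were not called.

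Heat shock genes encode chaperones that fold and refold proteins. Of 29 heat shock genes, 2 rose and 1 fell as deposited, where 7.21% of all genes were called, and 5 rose and 0 fell relative to the median gene, where 4.52% were called. Hspa1b, an inducible Hsp70, read 6.30, 7.31 and 7.75 log2 in waking and 5.06, 5.57 and 6.68 in sleep arrays, with overlap, and rose by 1.52 ± 0.35 (adjusted p = 0.0131). It was lost without the animals set apart by sex-linked genes (adjusted p = 0.0739), and its 2 other probe sets gave −0.41 and 1.42. Its neighbour Hspa1a, near-identical in sequence so that signal can be shared between the pair, averaged 6.86 ± 0.55 log2 in waking and 6.86 ± 0.25 in sleep arrays (SD, n = 6 each). Hsph1, an Hsp110, was bright and changed by a small, steady amount: 12.87, 13.05 and 13.10 log2 in waking and 12.78, 12.81 and 12.87 in sleep arrays, a rise of 0.21 ± 0.04 (adjusted p = 0.00454). The mitochondrial chaperonin Hspd1 fell by 0.16 ± 0.05 as deposited (adjusted p = 0.0448) but not relative to the median gene (adjusted p = 0.486). Hspd1 was also lost without the animals set apart by sex-linked genes (adjusted p = 0.15). Dnajb5, Dnajb4 and Hsp90aa1 rose relative to the median gene only, by 0.50, 0.22 and 0.09. On that scale Dnajb5 (adjusted p = 0.0693) and Hsp90aa1 (adjusted p = 0.0586) were lost without the animals set apart by sex-linked genes. Of 26 genes of the unfolded protein response, 0 were called on either scale although the median member was 0.20 log2 above the median gene. Hspa5, a chaperone of the endoplasmic reticulum, ranged from 11.2 to 11.7 log2 in waking and 10.7 to 11.5 in sleep arrays (0.29, adjusted p = 0.172). Among 24 ATF4 targets and tRNA synthetases 1 gene changed, Slc7a5, a carrier of large neutral amino acids, which fell by 0.84 ± 0.18 (adjusted p = 0.00709).

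Among the largest rises outside these lists, St3gal1, a sialyltransferase, read 8.99, 9.75 and 10.48 log2 in waking and 7.78, 8.47 and 9.13 in sleep arrays, a rise of 1.22 ± 0.34 (adjusted p = 0.0318) with overlap. Leng1 rose by 1.20 ± 0.25 (adjusted p = 0.00714), without overlap. Dnali1, a dynein light intermediate chain of cilia, rose by 1.21 ± 0.23 (adjusted p = 0.00448), and Dpf1, a subunit of the neuronal BAF chromatin remodelling complex, by 1.10 ± 0.31 (adjusted p = 0.0334). For Dnali1 the groups overlapped through waking array 1 (6.37 log2, against 6.01 to 6.65 in sleep arrays). With the mean of a gene's probe sets neither Dnali1 (adjusted p = 0.128) nor Dpf1 was called. St3gal1 (adjusted p = 0.0747) and Dpf1 (adjusted p = 0.0569) were lost without the animals set apart by sex-linked genes, where their changes were 1.20 and 0.93. Hoxc6, a homeobox factor known from caudal body regions, was among the 5 rises with the smallest p, at 6.38, 6.54 and 6.59 log2 in waking and 5.47, 5.67 and 5.82 in sleep arrays (0.86 ± 0.11, adjusted p = 0.00016), a dim signal near the filter. The mean of its 3 probe sets turned the direction, to −0.0267 log2.

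Malat1, an abundant nuclear long noncoding RNA, rose by a small amount. It read 14.31, 14.36 and 14.46 log2 in waking and 13.99, 14.13 and 14.28 in sleep arrays, a rise of 0.23 ± 0.04 (adjusted p = 0.000875) without overlap. Among 15 long noncoding RNAs, 2 rose and 2 fell, where 7.21% of all genes were called. Dleu2 rose by 1.07 ± 0.24 (adjusted p = 0.0106), while Snhg12, a host of small nucleolar RNAs, fell by 0.68 ± 0.17 (adjusted p = 0.0189). Snhg12 was lost without the animals set apart by sex-linked genes (adjusted p = 0.0777). Gas5, another such host, fell by 0.09 ± 0.02 (adjusted p = 0.0301), and this sign was not kept relative to the median gene (0.0028), and Gas5 was likewise lost without those animals (adjusted p = 0.0996).

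The largest falls were spread over unrelated functions. Msrb3, which repairs oxidised methionine, had both a large and a steady change: 6.4998, 6.88 and 7.34 log2 in waking and 8.24, 8.36 and 8.54 in sleep arrays. It fell by 1.48 ± 0.17 (adjusted p = 3.91e-05), and its second probe set gave −0.72. Prr5l, a partner of the mTORC2 kinase complex, fell by 1.16 ± 0.23 (adjusted p = 0.00587), and its 2 other probe sets gave −1.02 and −0.56. Hyls1, a centriole protein, read 5.74, 6.14 and 6.65 log2 in waking and 7.44, 7.56 and 7.603 in sleep arrays and fell by 1.35 ± 0.23 (adjusted p = 0.00184). Smpd4, a neutral sphingomyelinase, fell by 1.25 ± 0.27 (adjusted p = 0.00927) and Zfp37, a zinc finger protein, by 1.12 ± 0.21 (adjusted p = 0.00366), but their second probe sets gave only −0.06 and −0.11. Pcsk5, a proprotein convertase, fell by 1.14 ± 0.20 (adjusted p = 0.00194), with −0.13 and 0.17 from its other probe sets and 0.099 from the mean of all of them, which turns the direction. Invs of the cilium (−1.19), Slc17a5, the lysosomal sialic acid exporter (−1.15), and Alox8, a lipoxygenase (−1.22), fell as well, and all 3 were lost without the animals set apart by sex-linked genes. Rpap1 (−1.39, adjusted p = 0.0398) and Xaf1 (−1.23, adjusted p = 0.0419) fell as deposited but not relative to the median gene (adjusted p = 0.0678 and 0.0691), and both were lost without the animals set apart by sex-linked genes (adjusted p = 0.0625 and 0.12). At dim levels the cilium gene Cfap52 (−1.94 ± 0.23, adjusted p = 8.06e-05), Galnt4, which starts mucin-type O-glycans (−1.73 ± 0.14, adjusted p = 1.16e-06), and Skor1, a corepressor (−1.69 ± 0.39, adjusted p = 0.0134), were the largest falls, together with Asap3 (−1.53 ± 0.17) and Krt23 (−1.30 ± 0.11) among the smallest p. The second probe set of Skor1 gave 0.04, without the fall, and the other probe sets of Galnt4 gave −0.65 and −0.20. In waking arrays Cfap52, Galnt4, Asap3 and Krt23 lay at 3.88 to 5.27 log2. This is around and below the limit of 5.18 log2 that the filter on dim signals used for the mean of the unbound arrays. Their sleep means, 5.31 to 6.43 log2, lay above it. A gene could also pass on its bound mean, with a limit of 4.47 log2. Bound means of Cfap52 (3.91 in waking, 5.00 in sleep) and Krt23 (4.40 and 4.78) lay below that limit in waking and above it in sleep. The filter may thus have kept Cfap52 and Krt23 through the sleep arrays, where they were high.

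Cold-inducible and RNA-binding genes held 4 falls and 0 rises among 10, where 5.72% of all genes fell, and 2 falls relative to the median gene. Cirbp, an RNA-binding protein that rises with cooling, read 9.38, 10.29 and 10.59 log2 in waking and 10.93, 11.09 and 11.26 in sleep arrays, a fall of −0.89 ± 0.15 (adjusted p = 0.00126). Srsf5, a splicing factor, read 9.95, 10.14 and 10.43 log2 in waking and 10.93, 10.97 and 11.08 in sleep arrays, a fall of −0.81 ± 0.17 (adjusted p = 0.0068). Neither overlapped between the groups. Hnrnpdl (−0.30 ± 0.06, adjusted p = 0.00527) and Srsf6 (−0.50 ± 0.15, adjusted p = 0.0495) fell as deposited and were not called relative to the median gene (adjusted p = 0.0633 and 0.131), and Srsf6 was lost without the animals set apart by sex-linked genes (adjusted p = 0.0844).

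The calls in lists of bright housekeeping genes depended on the scale. Of 48 oxidative phosphorylation genes, 46 were lower in waking and 10 fell, where 5.72% of all genes and 149 of the 1393 genes in the brightest group fell, yet relative to the median gene 0 fell, 1 rose and 30 of 48 were higher. Atp5a1, a subunit of ATP synthase, was the clearest of them, at 13.56, 13.63 and 13.66 log2 in waking and 13.76, 13.79 and 13.82 in sleep arrays. It fell by 0.17 ± 0.02 (adjusted p = 0.000111) as deposited and by 0.08 relative to the median gene (adjusted p = 0.0503). Among 31 proteasome subunits 3 fell as deposited (Psmd6, Psma2 and Psmd14) and 0 relative to the median gene, where Psmc1 and Psmc2 rose but were lost without the animals set apart by sex-linked genes (adjusted p = 0.0676 and 0.21 on that scale). Of 27 cytosolic ribosomal protein genes 25 were lower, but the one call was Rps14, which fell by 0.24 ± 0.04 (adjusted p = 0.000556) and by 0.16 relative to the median gene (adjusted p = 0.0213). Among 27 genes of glycolysis, lactate and glycogen, Tpi1 fell as deposited and Pkm rose relative to the median gene. Without the animals set apart by sex-linked genes, 4 of the 10 oxidative phosphorylation falls were kept, and Psmd6, Psma2, Psmd14 and Tpi1 were lost.

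As deposited, the calls among transmitter receptor, potassium channel and presynaptic vesicle genes were all falls. Over all genes, 797 of 1004 calls were falls, 5.72% of the genes tested. Among 30 glutamate and GABA receptor subunits, 3 fell as deposited and 1 relative to the median gene. That one was Gabrg1, a GABA type A receptor subunit, at 8.10, 8.35 and 8.55 log2 in waking and 8.77, 8.97 and 9.23 in sleep arrays, a fall of −0.66 ± 0.15 (adjusted p = 0.013). Grik3 (−0.56, adjusted p = 0.0215) and Gabrb2 (−0.20, adjusted p = 0.0402) fell as deposited. Of 42 potassium channel genes 1 changed, Kcns2, a silent modulatory subunit, which fell by 0.75 ± 0.16 (adjusted p = 0.00709) without overlap. Among 27 presynaptic vesicle genes, Slc32a1 (−0.64 ± 0.17), Cplx2 (−0.22 ± 0.06), Sv2c (−0.75 ± 0.22) and Sv2a (−0.27 ± 0.08) fell as deposited, with adjusted p of 0.0272 to 0.0495, and none relative to the median gene. Of 10 genes of adenosine handling and 23 sleep-wake neuropeptides and related genes, 0 were called as deposited. The arousal peptide Hcrt averaged 7.17 log2 in waking and 7.41 in sleep arrays (−0.24, adjusted p = 0.402) and Pmch 8.95 and 9.03 (−0.07, adjusted p = 0.777), and only Cck rose relative to the median gene (0.22, adjusted p = 0.0432), and it was lost on that scale without the animals set apart by sex-linked genes (adjusted p = 0.121). Among 23 cholesterol genes, Insig1, which holds back sterol synthesis, fell by 0.47 ± 0.10 (adjusted p = 0.00635) and Scap, its binding partner, rose by 0.55 ± 0.16 (adjusted p = 0.0459). Of 15 antigen presentation and interferon genes, H2-K1 (−0.80 ± 0.20, adjusted p = 0.0182) and Ifitm3 (−0.70 ± 0.18, adjusted p = 0.0252) fell, the second not relative to the median gene. Growth arrest genes gave 0 calls of 13 as deposited, and Ccng1 rose relative to the median gene (0.33, adjusted p = 0.0104). Grik3, Gabrb2, the 4 presynaptic genes, Scap and Ifitm3 were lost without the animals set apart by sex-linked genes, with adjusted p of 0.0569 to 0.2.

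**Figure D4:**
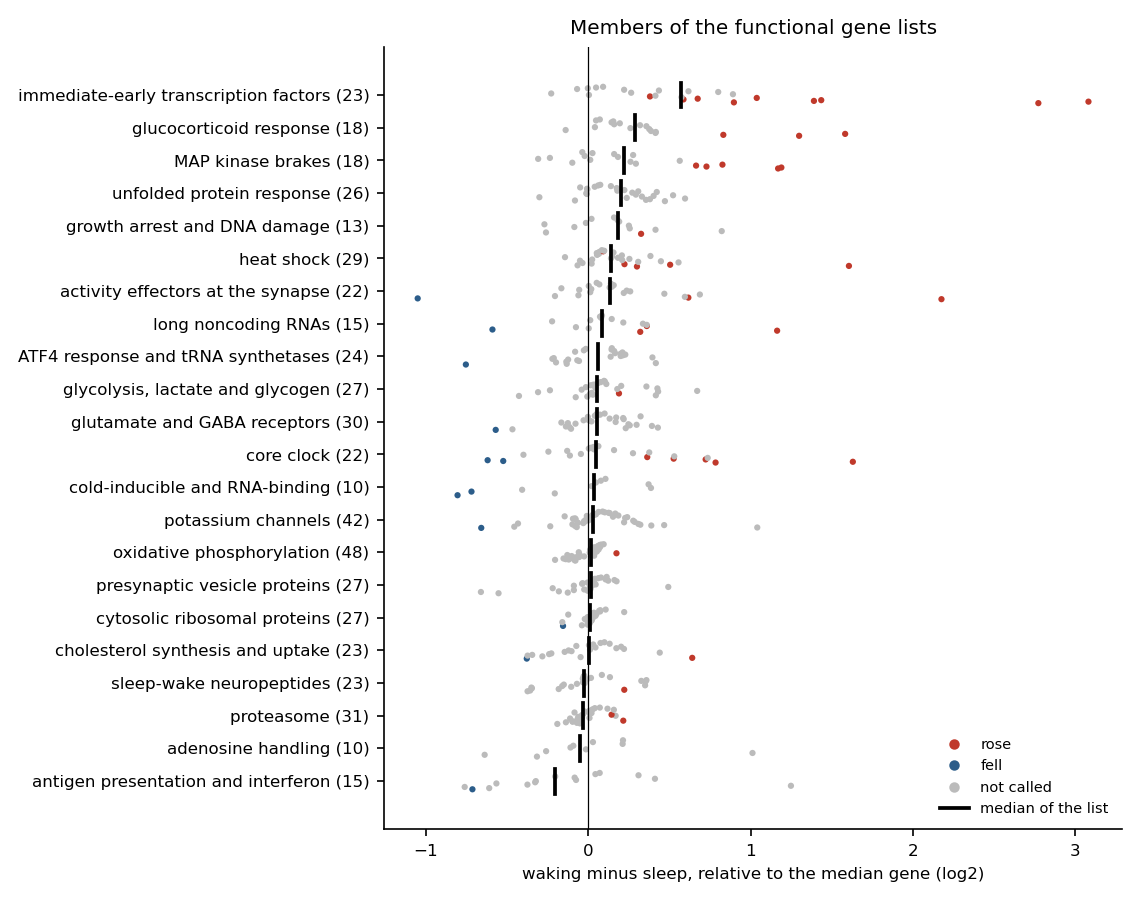
Change of each tested member (points) of 22 functional gene lists in waking minus sleep, relative to the median gene (log2), with the list's median (black bar) and the number tested in parentheses. Immediate-early transcription factors have the highest median, 0.57, and most other lists have a median near 0.

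The unbound RNA was read for markers of the cells it should and should not hold. Neuron markers were bright, with a list mean of 12.3 to 12.4 log2 in waking and 12.4 to 12.5 in sleep arrays. Brightness alone cannot check the fraction, because the oligodendrocyte gene Cnp was bright as well. Cnp averaged 12.80 log2 in unbound waking and 12.93 in unbound sleep arrays. The neuron list was not compared with the bound arrays. Of 15 neuron markers 3 fell, where 5.72% of all genes fell, led by Thy1, a neuronal surface glycoprotein, at 12.73, 12.78 and 12.86 log2 in waking and 13.02, 13.10 and 13.13 in sleep arrays. The fall of Thy1, −0.31 ± 0.03 (adjusted p = 1.16e-06), was also called relative to the median gene (−0.22, adjusted p = 0.000124). Stmn2 and Camk2b fell as deposited only and were lost without the animals set apart by sex-linked genes (adjusted p = 0.147 and 0.124). In bulk RNA a smaller number of cells of a type and less RNA per cell cannot be told apart. Mature oligodendrocyte markers remained in the unbound fraction, with a list mean of 9.16 to 9.63 log2 in waking and 9.53 to 9.81 in sleep arrays. Of 16, 3 fell and 1 rose as deposited: Opalin fell by 0.94 ± 0.18 (adjusted p = 0.00379), Mag by 0.66 ± 0.12 (adjusted p = 0.00366) and Cnp, whose promoter drives the tag, by 0.14 ± 0.04 (adjusted p = 0.0451), while Mobp rose by 0.27 ± 0.08 (adjusted p = 0.0489). Cnp was not called relative to the median gene (adjusted p = 0.572), and no call was made for Rpl10a, which encodes the ribosomal protein that carries the tag (−0.02, adjusted p = 0.867). Cnp and Mobp were lost without the animals set apart by sex-linked genes (adjusted p = 0.186 and 0.131). Choroid plexus and ependyma markers had a list mean of 7.05 to 7.71 log2 in waking and 7.59 to 8.12 in sleep arrays, with a median change of −0.43. As deposited 1 of 10 was called, Ttr, as a fall of −0.19 (adjusted p = 0.0305), but not relative to the median gene. Microglia markers had a median change of −0.25 with 0 of 13 called. Markers of astrocytes (16), oligodendrocyte precursors (11), endothelium (6), mural cells (8), meningeal fibroblasts (8), red blood cells (4), hypothalamic peptide neurons (10), and cortical and hippocampal excitatory neurons (14) gave 0 calls as deposited. One member fell as deposited among inhibitory neuron (Slc32a1), striatal neuron (Ppp1r1b), thalamic neuron (Zfhx3) and pituitary (Gh) markers, none of them relative to the median gene or without the animals set apart by sex-linked genes. The part of these markers in the falls above was not tested.

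Spontaneous waking was next set directly against enforced waking. The 2 wake groups also differed in light phase. In unbound RNA 1384 genes (9.94%) were called, 207 higher (1.49%) and 1177 lower (8.45%) in spontaneous waking, and 545 (3.91%) relative to the median gene, 290 higher and 255 lower (1.83%). Of the 23 immediate-early factors, 0 were higher and 6 lower in waking (5 relative to the median gene). Fos averaged 9.61 ± 0.61 log2 in waking and 9.50 in sleep-deprived arrays (0.11 ± 0.26, adjusted p = 0.84), and Egr2 9.15 and 9.37 (−0.22 ± 0.40, adjusted p = 0.774). Nr4a1 stood lower in waking by 0.83 ± 0.19 (adjusted p = 0.0103), Fosl2 by 0.59 (adjusted p = 0.0119) and Fosb stood at −1.73 ± 0.39 against sleep deprivation (adjusted p = 0.0094). Arc was not told apart (−0.26 ± 0.17, adjusted p = 0.343), whereas Homer1 was lower in waking by 0.67 ± 0.09 (adjusted p = 0.000163), Inhba by 1.58 (adjusted p = 6.19e-05) and Ptgs2 by 1.33 (adjusted p = 0.00727). Nptx2 averaged 8.10 log2 in waking, 9.57 in sleep-deprived and 9.24 in sleep arrays, so its low level stood against both other groups (−1.47 ± 0.13 against sleep deprivation, adjusted p = 2.4e-06). Of 18 glucocorticoid genes 11 were lower in waking than in sleep deprivation, 7 relative to the median gene, among them Plin4 (−1.71 ± 0.16, adjusted p = 2.92e-06), Cdkn1a (−1.64, adjusted p = 5.87e-07), Zbtb16 (−0.89, adjusted p = 0.000103) and Tsc22d3 (−0.86, adjusted p = 0.00105), while Sult1a1 was not told apart (−0.07, adjusted p = 0.903). Of 29 heat shock genes 13 were lower in waking as deposited but 1 relative to the median gene. Npas2 was higher in waking than in sleep deprivation by 0.44 ± 0.10 (adjusted p = 0.0102) and Hlf by 0.48 (adjusted p = 0.00537), and Per2 was not told apart (0.23 ± 0.23, adjusted p = 0.569). The 4 largest values above sleep deprivation at a level of at least 7 log2 were Pdlim3 (1.57 ± 0.25), St3gal1 (1.54 ± 0.34), Phf7 (1.47 ± 0.33) and Fgfrl1 (1.17 ± 0.35). The 4 largest below were Rnf138rt1 (−1.92 ± 0.25), Fosb, Dmkn (−1.71 ± 0.26) and Plin4. Against sleep, the sleep-deprived arrays gave 1089 calls (7.82%), 4.65% of genes as rises and 3.17% as falls, and because this contrast shares the sleep arrays its values are only set beside those of waking: Fos 2.58, Egr2 3.21, Arc 2.35, Per2 1.31, Dusp1 1.19, Cirbp −0.998, Dbp −0.83 and Nptx2 0.33.

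Finally the waking change of unbound RNA was compared with that of the bound, oligodendrocyte RNA. The difference of both arrays of an animal was used, with animals matched by state and number in the labels. The fractions were purified with different RNA kits, whose part in the difference was not tested. The 2 changes differed in 744 genes (5.34%), 195 with the unbound change above the bound one (1.4%) and 549 below (3.94%), and in 567 (4.07%) relative to the median gene, 220 above and 347 below. Arc rose by 2.09 in unbound and by 0.57 in bound RNA, a difference of 1.52 ± 0.21 (SE, adjusted p = 0.000465). Its mean was 9.96 log2 in unbound and 9.91 in bound waking arrays, and 7.88 and 9.34 in the sleep arrays. Per2 rose by 1.54 in unbound RNA and stood at 0.02 in bound RNA (difference 1.52 ± 0.32, adjusted p = 0.00859). Btg2 (1.27 ± 0.36, adjusted p = 0.0438) and Dusp1 (0.89 ± 0.20, adjusted p = 0.0116) likewise had the larger change in unbound RNA. Fos, at 2.68 and 2.69, and Egr2, at 2.99 and 3.54, were not told apart (adjusted p = 0.994 and 0.58). Of 29 heat shock genes, 14 rose in bound RNA, where 4.68% of all genes rose and 4.79% fell, against 2 in unbound RNA, and the unbound change was below the bound one in 15 and above it in 1 (10 and 1 relative to the median gene). Hsph1 changed by 0.21 in unbound and 0.82 in bound RNA (difference −0.61 ± 0.09, adjusted p = 0.000687), and Chordc1, an Hsp90 partner, averaged 0.22 higher in unbound RNA, not called, and rose by 0.96 in bound RNA (−0.75, adjusted p = 0.000189). Plin4 had the lowest difference of the genes named here, 1.21 in unbound and 3.58 in bound RNA (−2.37 ± 0.29, adjusted p = 0.000148). Nptx2 (−1.68 ± 0.36, adjusted p = 0.00878) and Msrb3 (−1.9997 ± 0.29, adjusted p = 0.000707) fell in unbound RNA but averaged 0.54 and 0.52 higher in bound RNA, where neither was called. St3gal1 (2.23 ± 0.46, adjusted p = 0.00786) and Pdlim3 (1.997 ± 0.33, adjusted p = 0.00166) averaged higher in unbound and lower in bound RNA, and only the bound change of Pdlim3 (−1.25, adjusted p = 5.99e-05) and the unbound change of St3gal1 were called on their own. Cirbp (−0.89 and −1.38) and Dbp (−0.71 and −0.87) fell in both fractions without a called difference (adjusted p = 0.141 and 0.672).

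**Figure D5:**
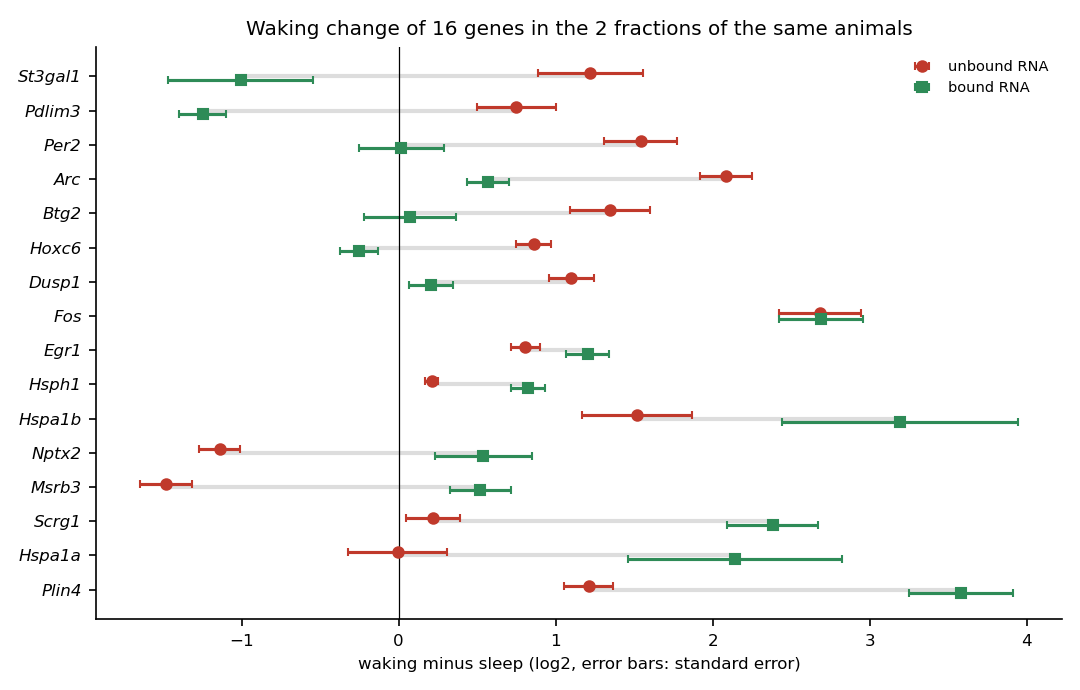
Waking minus sleep (log2) of 16 genes in unbound (circles) and bound (squares) RNA, with standard errors. Per2, Arc, Btg2 and Dusp1 lie further right in unbound RNA, Hsph1, Scrg1, Hspa1a and Plin4 further right in bound RNA, and the circles and squares of Fos coincide at 2.68 and 2.69.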

How the data were processed

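RNA was hybridised to Affymetrix mouse arrays, 1 array per fraction and animal, 36 arrays from 18 animals. The deposited values are log2 signals that the authors made with RMA, per the submitters' processing notes, and whether all arrays were normalized together is not stated there. Of 45101 probe sets, 34945 named 1 gene, 932 several and 9160 none, and 64 were array controls. Each of 18193 genes was read from its probe set with the highest mean over all arrays, and genes whose mean over the 18 unbound or over the 18 bound arrays was at or above the 40th percentile of that fraction (5.18 log2 in unbound, 4.47 in bound arrays) were tested, 13924 in all. Groups came from the labels, and 0 value columns were left unused. limma 3.58.1 in R 4.3.3 fitted group means over the 18 unbound arrays with an intensity trend, and the fraction difference used unbound minus bound per animal. All adjusted p-values are limma's with Benjamini-Hochberg adjustment over all tested genes, a call is an adjusted p below 0.05, and p-values measure the spread between animals. "Relative to the median gene" means that each array was centred on the median of its tested genes. The fit was tested on simulated data. Probe-level quality and RNA yield were not analysed here, so the number of arrays limits precision.

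The comparison and the gene lists were chosen with earlier results of these data known. Named genes were the 12 largest rises and falls at 7 log2 or more, the 3 largest without that floor, the 5 smallest p in each direction, up to 4 members of each list by p (2 for marker lists), the 4 largest each way in the other comparisons, Cnp and Rpl10a. Further called list members, and members set beside them from the other comparisons, were chosen after their values were seen. Unbound and bound arrays with the same state and number in their labels were taken as the same animal, which the labels do not state outright. In both fractions Xist stood above the Y-linked genes in waking arrays 3 and 5 and sleep-deprived array 11 only. Deviations of the paired arrays correlated at −0.0032 to 0.0848 over 18 pairs. Promoters are from RefSeq (GRCm38.p6), for 11187 tested genes. Alternatives were quantile normalization, centring, other filters, the mean of probe sets, other limma settings, left-out arrays and animals, and a replicate block.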

Additional observations from a re-analysis of the deposited data

Results flagged for a closer look

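In 188 groups of 6 arrays, from 94 named genes, 14 had 1 array whose gap to the next exceeded 0.625 of the group's range, where chance gives about 1 in 20 groups. Waking array 3 was such an array for Fos (8.41 log2), Dpf1 (8.86), Pdlim3 (8.46), Fgfrl1 (8.945) and Cirbp (9.38). Other waking arrays stood apart for Per2 (array 4, 9.28), Dnali1 (array 1, 6.37), Rnf138rt1 (array 5, 6.31) and Hsph1 (array 6, 12.87). Among sleep arrays, array 3 stood apart for Dusp1 (9.09), Slc7a5 (8.06) and Grik3 (7.897), array 1 for Spry4 (8.21) and array 5 for Ttr (13.71).

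The waking minus sleep change differed between unbound and bound RNA in 30 of these 94 named genes, each by limma's test of the difference. Over all genes 5.34% differed, but named genes were mostly picked by the size or the p of a change or difference, including list members picked by p. The higher share among the 94 is therefore not a separate result. The unbound change was above the bound one by 2.23 log2 for St3gal1, 2.09 for Yap1, 1.997 for Pdlim3, 1.98 for Fgf5, 1.52 for Per2, 1.52 for Arc, 1.27 for Btg2, 1.14 for Dpf1, 1.11 for Hoxc6 and 0.89 for Dusp1. As unbound minus bound change, Plin4 stood at −2.37, Hyls1 at −2.22, Scrg1 at −2.16, Hspa1a at −2.15, Ifitm3 at −2.02, Msrb3 at −1.9997, Galnt4 at −1.85, Pcsk5 at −1.74, Nptx2 at −1.68 and Smpd4 at −1.67. Smaller values were −1.55 for Asap3, −1.38 for Rnf138rt1, −1.18 for Zfp37, −0.92 for Krt23, −0.61 for Hsph1, −0.58 for Insig1, −0.396 for Egr1, −0.39 for Hspd1, −0.36 for Thy1 and −0.18 for Gas5. Outside the 94, the difference was also called for Dnajb5 (0.62), Pdgfrb (0.76), Hsp90b1 (−0.50), Stard4 (−0.70), Cdkn2d (−0.77) and Pdgfra (−1.06).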

How the results depend on the processing

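Waking against sleep gave 1004 calls, and leaving out 1 array at a time gave 748 (without sleep array 5) to 958 (without sleep array 3), with 156 to 193 higher and 591 to 765 lower in waking. Centring gave 630 (325 higher, 305 lower), quantile normalization 342 higher and 338 lower, no filter on dim genes 2382 (731 and 1651), the 60th percentile 581 (93 and 488), leaving out the animals set apart by sex-linked genes 533 (120 and 413), and a test against 0.25 log2 67 (21 and 46). Centring without those animals, chosen after seeing the data, gave 327 (162 lower). Against sleep deprivation, 1384 calls became 545 with centring (255 lower), 581 with quantile normalization (283 lower), 2771 with no filter (732 higher, 2039 lower), and 710 without the animals set apart (105 and 605), and the 60th percentile gave 72 higher. The fraction difference of 744 became 2071 with no filter (663 and 1408), 263 at the 60th percentile (54 and 209) and 382 without the animals set apart (93 and 289), with 347 lower after centring and 333 after quantile normalization. Filters change which genes are tested and left-out animals the number of arrays, and beyond that the cause was not tested.

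No label ties waking and sleep animals of the same replicate number, and the numbers were not used as pairs. Same-numbered deviations correlated at −0.0050 to 0.1002, and 6 of 12 arrays correlated best with their own number, where chance gives 2, a hint from the data and not the design. Arrays taken to share an animal correlated at −0.0032 to 0.0848, so this measure could not show a pairing. A fit with the replicate block gave 464 calls (98 higher, 366 lower). The fraction difference gave 744 calls when paired by animal, and 868 when the arrays of an animal were not paired.

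Of 83 named genes called in waking against sleep, 20 were called in each of the 23 or 24 settings in which they were tested, 12 of 27 rises and 8 of 56 falls. With the mean of a gene's probe sets, Pcsk5 turned to 0.099 and Hoxc6 to −0.0267. Centring turned Gas5 to 0.0028. Dim genes near background carry the least certain changes.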

Other observations

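Xist, the RNA that coats the inactive X chromosome, read 6.46 and 6.72 log2 in the 2 waking arrays set apart by sex-linked genes. In the other 4 waking arrays it read 4.36 to 4.79 log2, against 3.53 to 4.04 in the 6 sleep arrays, without overlap. The values of these waking and sleep arrays all lay below 5.18 log2, the filter's limit for the mean of the unbound arrays. Xist was tested because its mean over the bound arrays passed the bound limit of 4.47 log2. It read 5.83 and 6.74 log2 in bound waking arrays 3 and 5 and 5.33 in bound sleep-deprived array 11. All bound sleep arrays lay below that limit, at 3.78 to 4.42 log2, so the gene did not pass through the sleep group. Over all genes, 4.45% did not overlap between the full groups of 6 arrays. Non-overlap is reached more easily with 4 waking arrays, so this share is not a like comparison. At this dim level the separation is uncertain, and its cause was not tested.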
